A study of Mus musculus with 6 samples.

Results

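Open chromatin of heart nuclei captured with a PCM1 antibody was compared with that of nuclei from which no capture was made. The comparison holds 4 of the 6 libraries of the series, namely 2 PCM1 and 2 Input libraries, chosen by their labels. All 4 were made from wild type hearts of mice at postnatal day 1, according to the labels, with nuclei purified over a 2.2 M sucrose cushion and 50000 nuclei per library. The Input nuclei went from the cushion into the assay, while the PCM1 nuclei were first bound by an antibody to PCM1 and pulled out with magnetic beads, a step the study calls MAN-IP. The measured regions were 149261 intervals obtained by merging the peaks of the 4 lists.

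PCM1, pericentriolar material 1, is a protein of centriolar satellites that gathers at the nuclear envelope of cardiomyocytes once they differentiate, and for this reason it is used as a tag for cardiomyocyte nuclei in heart tissue. A neonatal heart also contains fibroblasts, endothelial cells, smooth muscle cells, pericytes, epicardial cells and macrophages. The dense sucrose cushion is the one the study uses to select cardiomyocyte nuclei without an antibody, so the Input nuclei are themselves not an untouched sample of the heart. The antibody was applied briefly, which labels a fraction of the nuclei. Omni-ATAC-Seq uses a transposase that inserts sequencing adapters where DNA is free of nucleosomes, so that promoters, enhancers and insulators appear as peaks of tags. In a bulk library a change in the share of cells of a type and a change in accessibility within each cell cannot be told apart.

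The peak lists held 131500 and 75336 peaks in Input replicates 1 and 2 and 83139 and 81487 peaks in PCM1 replicates 1 and 2. Input replicate 1 stood apart by depth. Its genome-wide background, recovered from the peak statistics, was 3.96 tags, compared with 1.02 in Input replicate 2 and 0.977 and 0.903 in the PCM1 libraries, which makes it 4.39 times as deep as the shallowest library. The PCM1 libraries also carried a signal that their label does not predict. Summits within coding exons of Sun1, the nuclear envelope gene whose cDNA is part of the Sun1-GFP-myc tag of the Myc hearts in the same series, numbered 0 and 0 in the Input libraries, 3 and 7 in the PCM1 libraries and 4 and 4 in the Myc libraries (Nkx2-5 Cre with the tag at ROSA26). The Input and PCM1 libraries do not overlap in this number, which goes against the wild type label of both PCM1 libraries, so that their genotype is given here only as labelled. A difference of genotype or of library source and the effect of the capture cannot be told apart. The study describes the replicates as independent biological ones. The p-values below do not measure the spread between the 2 libraries of each group alone. They rest largely on a variance estimated from all tested regions as a trend with signal strength.

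Of the 149261 merged regions, 51162 (34.3%) held a peak in all 4 libraries. Regions with a peak in both PCM1 libraries and in neither Input library numbered 853, or 0.571% of the merged regions, and regions with a peak in both Input libraries and in neither PCM1 library numbered 7718, or 5.17%. This imbalance moved with list length. When each list was held to its 75336 strongest peaks, 108184 regions remained, of which 48207 (44.6%) were shared by all 4 libraries, 2925 (2.7%) were found only in PCM1 and 4259 (3.94%) only in Input. Without Input replicate 1, the regions found only in PCM1 numbered 8814 and those found only in Input 11176. A region without a peak in a library may still be open there, below what its depth could show.

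**Figure D1:**
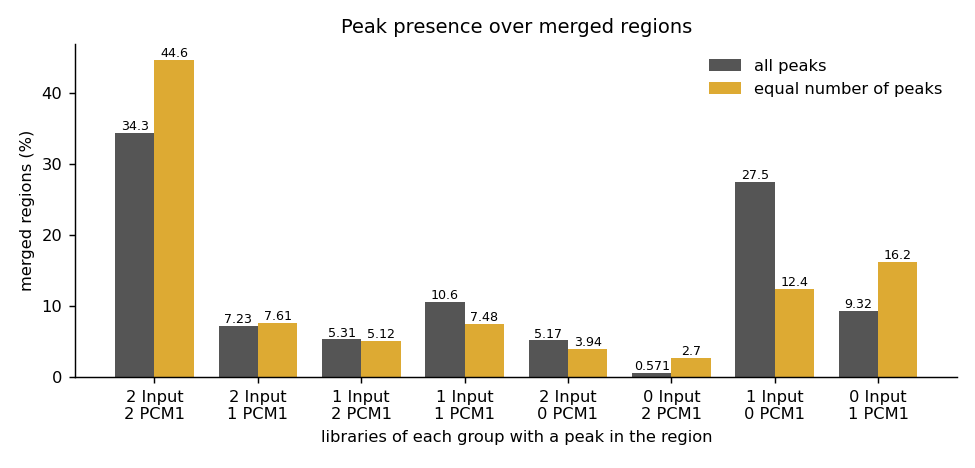
Share of merged regions (%) by the number of Input and PCM1 libraries with a peak in the region, with all peaks (grey) and with an equal number of strongest peaks per library (yellow). The PCM1-only share went from 0.571% to 2.7% and the Input-only share from 5.17% to 3.94% when list lengths were made equal.

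The strength of a region was then compared by its rank. Regions were ordered within each library by their -log10 q-value and placed on a common scale on which 100 is the strongest region and 0 is a region without a peak. Both PCM1 libraries ranked above both Input libraries at 18976 regions (12.7%), and both Input libraries ranked above both PCM1 libraries at 23395 regions (15.7%). With ranks taken as percentiles within each list these counts were 4356 and 26796, and leaving out 1 library gave 25154 to 43596 and 34067 to 70233. With 2 libraries against 2, an exact permutation test of a single region cannot give a two-sided p below 1 in 3, so ranks and presence are given as counts with no test.

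The test was made on summit height. The number of tags stacked at each summit was recovered from its fold enrichment and p-value, put on the log2 scale, made comparable between libraries by quantile normalization, and tested with limma over the 51162 regions called in all 4 libraries. With Benjamini-Hochberg adjusted p at or below 0.05, 1390 regions (2.72%) were higher in PCM1 and 1700 regions (3.32%) were higher in Input. The median difference was 0.76 among the first and -0.82 among the second, on the log2 scale. PCM1-higher regions made up 45% of these calls. With median centring in place of quantile normalization they made up 24.1%, at 1205 regions higher in PCM1 and 3790 higher in Input. The calls needed all 4 libraries and a variance that follows signal strength, since they numbered 0 in both directions when Input replicate 1, PCM1 replicate 1 or PCM1 replicate 2 was left out or when the trend was removed, and 10 and 4 without Input replicate 2. At an unadjusted p under 0.05, limma gave 9532 of the 51162 regions without the trend, compared with 11490 with it. A share of about 0.05 would pass with no difference, so these are not counts of surviving differences. Over the regions called with all 4 libraries, the median log2 difference without each library in turn was 0.702 to 0.785 (PCM1-higher) and -0.829 to -0.8 (Input-higher). Those regions were picked with the left-out library included.

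The sequences of 6 regions carry the contrast described in the following: the call with the smallest p in 4 cardiomyocyte genes, the promoter with the smallest p in the Input direction, and the Input-higher region away from promoters with the smallest p that holds a CTCF motif. Each is 300 bases of the mm10 reference, plus strand, centred on the summit, and capitals mark every match to any of the 15 motifs that were searched on both strands.
Actc1, chr2:114046511-114046810: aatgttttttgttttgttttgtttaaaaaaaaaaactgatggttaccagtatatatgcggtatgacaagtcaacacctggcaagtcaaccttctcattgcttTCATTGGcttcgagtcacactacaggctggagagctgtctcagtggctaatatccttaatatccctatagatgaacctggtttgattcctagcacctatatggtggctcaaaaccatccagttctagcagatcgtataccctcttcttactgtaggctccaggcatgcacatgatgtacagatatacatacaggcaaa
Ldb3, chr14:34567723-34568022: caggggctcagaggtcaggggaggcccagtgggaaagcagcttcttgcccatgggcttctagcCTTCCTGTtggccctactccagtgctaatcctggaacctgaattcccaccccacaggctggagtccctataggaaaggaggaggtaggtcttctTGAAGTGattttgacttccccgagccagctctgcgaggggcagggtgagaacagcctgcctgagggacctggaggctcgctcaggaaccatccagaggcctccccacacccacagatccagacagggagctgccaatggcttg
Myh6, chr14:54959986-54960285: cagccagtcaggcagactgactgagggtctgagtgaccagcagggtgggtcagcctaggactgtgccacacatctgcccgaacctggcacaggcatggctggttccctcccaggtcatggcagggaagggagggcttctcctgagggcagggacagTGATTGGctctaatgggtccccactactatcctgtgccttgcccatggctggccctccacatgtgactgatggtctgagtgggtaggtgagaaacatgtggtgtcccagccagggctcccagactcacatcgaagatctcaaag
Cacna1c, chr6:118819683-118819982: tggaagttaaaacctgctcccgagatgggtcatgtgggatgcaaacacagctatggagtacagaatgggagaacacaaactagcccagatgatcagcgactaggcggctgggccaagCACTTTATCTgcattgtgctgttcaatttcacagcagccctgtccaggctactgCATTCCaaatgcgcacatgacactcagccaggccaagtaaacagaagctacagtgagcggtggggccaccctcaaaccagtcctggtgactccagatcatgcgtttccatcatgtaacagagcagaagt
Dnpep, chr1:75317541-75317840: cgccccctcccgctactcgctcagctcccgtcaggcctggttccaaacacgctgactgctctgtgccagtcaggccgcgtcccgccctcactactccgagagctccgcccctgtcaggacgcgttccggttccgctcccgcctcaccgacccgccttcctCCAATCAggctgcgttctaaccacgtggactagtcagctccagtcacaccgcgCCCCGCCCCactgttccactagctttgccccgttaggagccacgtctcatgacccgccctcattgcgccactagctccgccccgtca
Zxdb, chrX:94865613-94865912: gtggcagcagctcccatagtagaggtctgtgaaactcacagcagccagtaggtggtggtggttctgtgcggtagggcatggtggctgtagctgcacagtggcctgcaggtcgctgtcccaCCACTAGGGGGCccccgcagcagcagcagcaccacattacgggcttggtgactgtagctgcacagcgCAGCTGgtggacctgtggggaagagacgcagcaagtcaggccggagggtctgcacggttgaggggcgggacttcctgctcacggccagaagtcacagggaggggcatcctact
The Cacna1c window holds 1 match each to the GATA, NKX2-5 and TEAD motifs, and the GATA and NKX2-5 matches overlap. The Ldb3 window holds an NKX2-5 and an ETS match, the Actc1 and Myh6 windows hold 1 NFY match each, and the Dnpep promoter holds an NFY and an SP/KLF match. The Zxdb window, in an intergenic region 141194 bases from the nearest protein-coding start site, holds the CTCF motif and an E-box. A match describes the letters in these windows and is not evidence of binding.

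Contractile genes of the cardiomyocyte had the highest share of PCM1-higher regions among the 18 lists, though not the highest median difference, which was 0.64 over the 7 regions of the skeletal muscle list. In a list of 18 sarcomere genes, 30 of 88 tested regions (34.1%) were higher in PCM1 and 1 was higher in Input, beside 2.72% and 3.32% over all tested regions, and the median log2 difference was 0.37 beside 0.01. At least 1 PCM1-higher region lay in 11 of the genes. The list median held without each library in turn (0.37 to 0.39), while the calls, as over all regions, needed all 4 libraries. The count was 28 after a correction for GC content and 21 with median centring. It was 0 without the variance trend and 0 on quantile-normalized log2 fold enrichment. On that last measure the list median was -0.09, and 40.9% of the differences were above 0.

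Myh6 encodes the alpha myosin heavy chain, a motor protein of the thick filament of the heart. All 5 of its tested regions were higher in PCM1, while another intronic region (chr14:54946143-54946761) had peaks in both Input libraries, of 152 and 52 tags before normalization, and in neither PCM1 library. At the intronic region printed above, 6791 bases downstream of the gene start, the normalised summit height was 73.1 and 65 tags in the Input libraries and 206 and 186 tags in the PCM1 libraries. This was a log2 difference of 1.51 ± 0.158 (SE, n = 2 libraries per group; limma, adjusted p = 2.67e-05). Intronic and exonic regions further downstream, at 10136 and 13050 bases, differed by 1.16 and 1.04. The promoter, which is among the strongest regions of every library, had heights of 528 and 539 in Input and 658 and 638 in PCM1 (0.28 ± 0.0702, limma, adjusted p = 0.0254). The difference was therefore larger within the gene than at its promoter, in log2 units, and at none of the 5 regions did the groups overlap.

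Actc1 encodes cardiac alpha actin, the thin filament partner of myosin. A region 6887 bases from its gene start, beyond the end of the gene, reached 165 and 169 tags in PCM1 compared with 49.8 and 51.8 in Input, a log2 difference of 1.72 ± 0.174 (limma, adjusted p = 1.69e-05). A second region, 794 bases upstream of the start, differed by 0.72. Ldb3, which encodes a PDZ and LIM domain protein of the Z-disc, had 9 of its 11 tested regions higher in PCM1, with log2 differences from 0.49 at the promoter to 1.25. The last value belongs to the region printed above, with heights of 151 and 120 in Input and 321 and 320 in PCM1 (SE 0.128; limma, adjusted p = 1.83e-05).

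Mybpc3, cardiac myosin binding protein C, had 4 of 4 tested regions higher in PCM1, from 0.49 to 1.11. Myl2, the ventricular regulatory light chain, had 2 of 3, with heights of 317 and 349 in Input and 588 and 585 in PCM1 at the stronger region (0.82 ± 0.0832, limma, adjusted p = 1.8e-05). Tnnt2, cardiac troponin T, had 2 of 2, its promoter at 278 and 299 tags in Input and 358 and 375 in PCM1 (0.35 ± 0.095, limma, adjusted p = 0.0378). The giant spring protein gene Ttn had 2 of 13, at 0.43 and 0.52. By contrast, Tnni3, Myl3 and Csrp3 had tested regions but none past the threshold, and the exception in the list was Myom1, an M-band protein, with 1 region higher in Input.

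Some genes for calcium entry and release followed the same pattern. In the calcium handling list, 33 of 123 tested regions (26.8%) were higher in PCM1 and 0 were higher in Input, with a median log2 difference of 0.45. At least 1 PCM1-higher region lay in 5 of the 12 genes. Atp2a2, Casq2, Trdn, Asph, Hrc, Sln and Camk2d had tested regions but no call, with medians from -0.38 in Sln to 0.45 in Casq2. By gene rank, 4 genes of the list were higher in PCM1 and 3 in Input. Most of the PCM1-higher regions came from a single gene. Cacna1c, which encodes the pore subunit of the L-type calcium channel, had 21 PCM1-higher regions among 43 tested, and 41 of the 43 differences were above 0. Jph2, which holds the sarcoplasmic reticulum against the T-tubule membrane, had 7 of 12, Ryr2, the calcium release channel, had 3 of 18, and Slc8a1, the sodium-calcium exchanger, had 1 of 13. Pln, phospholamban, had 1 of 3, an intronic region 9064 bases from the start with 103 and 89 tags in Input and 172 and 185 in PCM1 (0.89 ± 0.15, limma, adjusted p = 0.00262). The Pln promoter differed by 0.1 (limma, adjusted p = 0.735).

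Along Cacna1c, the PCM1-higher regions were spread over introns and start sites out to 404402 bases downstream of the gene start. The promoter had heights of 320 and 306 in Input and 436 and 447 in PCM1, a log2 difference of 0.5 ± 0.0877 (limma, adjusted p = 0.00356). The region with the smallest p in the gene, printed above, had 114 and 97.4 tags in Input and 237 and 218 in PCM1 (1.11 ± 0.14, limma, adjusted p = 0.000234). The largest difference, 1.63 ± 0.325, lay at a weak region 118924 bases from the start, with 15.3 and 11.3 tags in Input and 39.1 and 42 in PCM1 (limma, adjusted p = 0.00766). At each of these the lower PCM1 library was above the higher Input library.

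**Figure D2:**
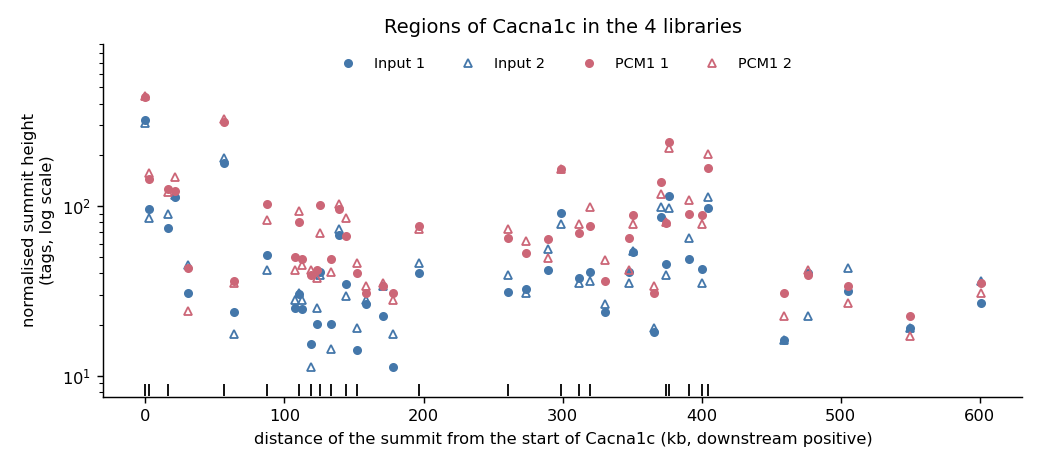
Normalised summit height (tags, log axis) of the 43 tested regions of Cacna1c against distance from the gene start (kb). Blue marks are the 2 Input libraries, red marks the 2 PCM1 libraries, and black ticks mark the 21 regions past adjusted p 0.05, all higher in PCM1.

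Other genes of the working myocardium were also represented. The list of natriuretic peptides and stress genes had 10 of 37 tested regions (27%) higher in PCM1 and 0 higher in Input. These lay in Mb, myoglobin (5 of 9), Xirp1, an actin-binding protein of the intercalated disc (2 of 2), Des, desmin (2 of 4), and Ankrd1 (1 of 2). The natriuretic peptide genes themselves, Nppa and Nppb, had 1 tested region each, at -0.18 and -0.02, with 0 past the threshold. Ion channels and gap junctions had 6 of 96 (6.25%), among them regions of Kcnq1 (3) and Gja1 (1). Over all genes, and leaving aside Gm20388, a gene model that overlaps many others, Cacna1c had the most PCM1-higher regions in the gene body and 2 kb to either side. It was followed by Zmiz1 (13 of 33 tested), Gse1 (11 of 43), Casz1 (10 of 22), Ldb3 (9 of 11), Msi2 (8 of 33) and Rbm20 (8 of 26). Jph2 (7 of 12), Prdm16 (7 of 28) and Shb (7 of 16) came next, beside 2.72% of all tested regions. Casz1 and Prdm16 are transcription factors with known roles in heart muscle, and Rbm20 is the splicing factor of titin.

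**Figure D3:**
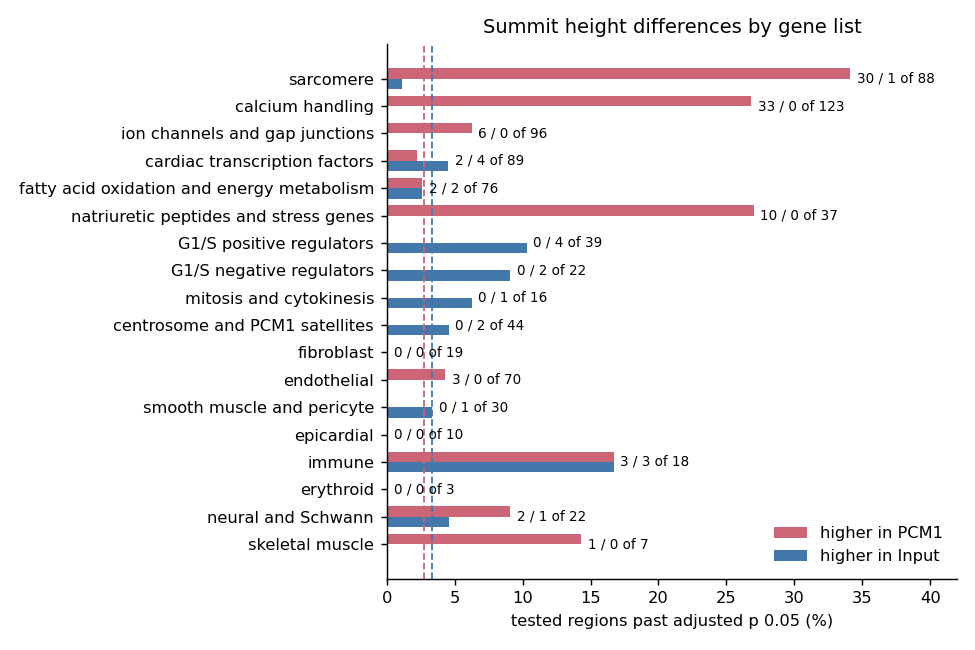
Share of tested regions (%) past adjusted p 0.05 in each gene list, higher in PCM1 (red) and higher in Input (blue), with the counts beside the bars as PCM1 / Input of tested. Dashed lines are the shares over all tested regions, 2.72% and 3.32%, and the sarcomere (34.1%), natriuretic peptide and stress (27%) and calcium handling (26.8%) lists lie furthest above them.

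Cardiac transcription factor genes had few calls. Their list had 2 of 89 tested regions higher in PCM1 (2.25%) and 4 higher in Input (4.49%), both near the shares over all regions, with a median of 0.15 and 57 of 89 differences above 0. The 4 lay in Tead1, Mef2c, Hey2 and Nr2f2. At the promoter of Tead1, which encodes a DNA-binding partner of YAP, heights were 276 and 256 in Input and 160 and 148 in PCM1 (-0.79 ± 0.12, limma, adjusted p = 0.00134), while 2 regions within the gene were higher in PCM1 by 0.75 and 0.7. Nkx2-5 had 2 tested regions at 0.12 and 0.88, neither past the threshold (limma, adjusted p = 0.57 and 0.0629). Genes of fatty acid oxidation and energy metabolism had 2 of 76 regions higher in each direction.

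Markers of other cell types gave few calls. The fibroblast list had 19 tested regions with 0 calls in either direction and a median of -0.16. The epicardial list had 10 with 0 calls and a median of -0.18. Over all tested regions the shares called were 2.72% and 3.32%, so in lists this short a count of 0 does not differ from the background. Col3a1, collagen III, had no region called in all 4 libraries, and its promoter ranked at 65.3 and 77.9 in Input and at 63.6 and 0 in PCM1. Col1a1 had 1 tested region at -0.19 (limma, adjusted p = 0.679), and Wt1, the epicardial transcription factor, had 3 between -0.16 and 0.21. Upk1b, another epicardial marker, had 1 at 0.53 (limma, adjusted p = 0.356). These medians lie below 0.01, the median over all tested regions, with no count past the threshold to set beside them.

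Endothelial genes had a median above 0 and a share of PCM1-higher regions near that over all regions. Of their 70 tested regions, 3 were higher in PCM1 (4.29%) and 0 were higher in Input. Over all tested regions these shares were 2.72% and 3.32%, and over introns 3.7% and 1.07%. The endothelial median was 0.16, beside 0.01 over all tested regions and 0.11 over introns. The 3 lay in Pecam1, Egfl7 and Nfatc1. At the Pecam1 region, 72590 bases from the gene start, heights were 277 and 256 in Input and 337 and 338 in PCM1 (0.34 ± 0.0983, limma, adjusted p = 0.0454). Smooth muscle and pericyte genes had 0 and 1 of 30, the 1 in Myh11, and 2 tested regions of Acta2 had -0.26 and 0.76 (limma, adjusted p = 0.695 and 0.0661).

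Immune genes had 3 of 18 regions (16.7%) in each direction, beside 2.72% (PCM1) and 3.32% (Input) of all tested regions. The 3 PCM1-higher ones and 1 of the Input-higher ones lay in the annotated span of Cx3cr1, which takes in Xirp1 of the natriuretic peptide and stress list and other genes, and the other 2 in Mrc1, the macrophage mannose receptor. Both of the tested Mrc1 regions were higher in Input, one with 49 and 44.7 tags in Input and 23.7 and 22.4 in PCM1 (-1.02 ± 0.289, limma, adjusted p = 0.0429), and the other at -1.17. Lyz2, the macrophage lysozyme, had peaks in both Input libraries, at gene ranks of 55.5 and 51.9, and 0 in both PCM1 libraries. Other members went the other way, Itgam from 64.7 and 64.3 in Input to 76.1 and 74.4 in PCM1 and Cd68 from 98.4 and 98.3 to 98.6 and 99.1. By gene rank, 6 of the 12 immune genes were higher in Input and 2 in PCM1, beside 25.7% and 16.4% of all protein-coding genes. The erythroid list had 3 tested regions with 0 calls, and the 4 globin genes and Alas2 had no peak in any of the 4 libraries. The neural and Schwann list had 2 and 1 of 22, and the skeletal muscle list had 1 and 0 of 7, the 1 in Tnni2. Myf5 and Myh4 had no peak in any library.

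By gene rather than by region, with the strongest rank of any peak in the gene or 2 kb to either side, both PCM1 libraries ranked above both Input libraries at 3593 of 21938 protein-coding genes (16.4%) and below them at 5638 (25.7%). The sarcomere list had 8 of 18 genes higher and 6 lower. The lower ones were Actc1, Myl3, Myl7, Tpm1, Myom1 and Csrp3, with Actc1 at 97.1 and 98.1 in Input and 96.4 and 97.1 in PCM1. Myh7, the slow myosin heavy chain, ranked at 82.8 and 84.8 in Input and at 90.4 and 88.6 in PCM1, and the atrial light chain gene Myl7 went the other way, from 66.5 and 70.5 to 61.4 and 0. The epicardial list had 1 of 12 genes higher and 6 lower, with Upk3b at 74.3 and 70.6 in Input and 51.4 and 60.8 in PCM1. The median best rank of the sarcomere genes was 97.4 and 98.1 in Input and 97.8 and 98.2 in PCM1. For Myh6 it was 99.1 and 99.3 in Input. Whether the upper end of the scale limits these counts was not tested.

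Cell cycle genes were of interest because cardiomyocytes leave the cell cycle in the days after birth. Positive regulators of the G1/S step had 0 of 39 tested regions higher in PCM1 and 4 higher in Input (10.3%), in Ccnd3, Ccne1, Cdk4 and E2f3, beside 3.32% of all tested regions and 8.85% of promoters. Negative regulators had 0 and 2 of 22 (9.09%), in Cdkn1a and Btg2. The list of mitosis and cytokinesis genes had 0 and 1 of 16, at the checkpoint kinase gene Bub1, and the list of centrosome and satellite genes had 0 and 2 of 44, in Cep290 and Odf2. The medians of the G1/S lists were -0.08 and -0.06. The gene of the antibody target, Pcm1, had 2 tested regions at -0.2 and 0.27 and neither passed the threshold (limma, adjusted p = 0.341 and 0.577).

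The Input-higher regions were of another class. Of the 1700, 66% lay at promoters, within 1 kb of a protein-coding start site, compared with 24.8% of all tested regions and 19.4% of the PCM1-higher ones. Introns held 53.3% of the PCM1-higher and 12.6% of the Input-higher regions. Counted by class, 1122 of 12673 promoters (8.85%) were higher in Input and 270 (2.13%) in PCM1, while 741 of 20010 intronic regions (3.7%) were higher in PCM1 and 214 (1.07%) in Input. Exons resembled introns, with 57 and 17 of 1590, and intergenic regions had 322 and 347 of 16889. The regions found in 1 group only did not show this contrast, with 5.51% of the PCM1-only and 5.34% of the Input-only regions at promoters. The contrast of the classes also depended on the measure. On log2 fold enrichment, limma called 0 promoters higher in PCM1 and 8 higher in Input, with a median of -0.01. For introns the calls were 11 and 10, with a median of 0.03. Without the variance trend, no class had a call in either direction.

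**Figure D4:**
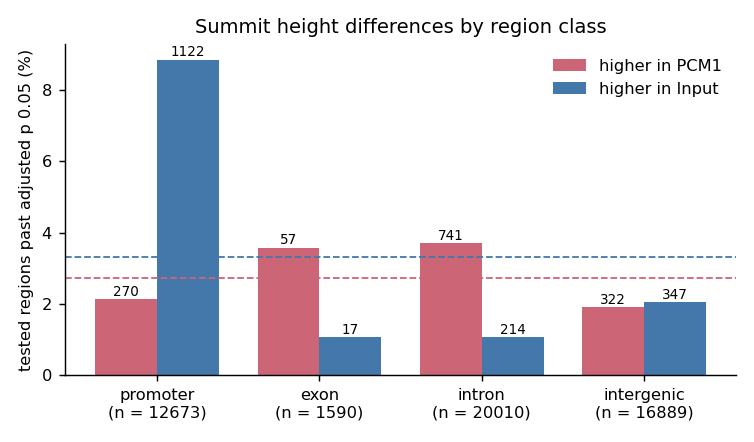
Share of tested regions (%) past adjusted p 0.05 by region class, higher in PCM1 (red) and in Input (blue), with counts above the bars and the shares over all regions (2.72% and 3.32%) as dashed lines. Promoters reached 8.85% in the Input direction and introns 3.7% in the PCM1 direction.

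Base composition moved with the class. Input-higher promoters had a median GC content of 67%, compared with 64.7% for all tested promoters and 62.3% for PCM1-higher promoters. When all tested regions were cut into 4 bins of GC, 946 of 9421 promoters in the highest bin (10%) were higher in Input, compared with 18 of 376 (4.79%) in the lowest. Away from promoters, by contrast, the share higher in PCM1 went from 1.46% in the lowest bin to 5.13% in the highest, with 1.4% and 2.27% higher in Input. After a loess correction for GC content, 876 promoters were higher in Input and 448 in PCM1, and 722 introns were higher in PCM1 and 265 in Input. With median centring, 2527 promoters were higher in Input and 130 in PCM1, and 702 introns were higher in PCM1 and 466 in Input. On chromosome X, 4 of 873 tested regions (0.458%) were higher in PCM1, beside 2.72% over all chromosomes, and 29 (3.32%) were higher in Input, the same share as over all chromosomes.

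The strongest calls in each direction were single regions, and none lay within the window of a listed gene. In PCM1 the region with the smallest p lay 11216 bases upstream of Hic2 (chr16:17222173-17222580), at 244 and 225 tags in Input and 1240 and 1240 in PCM1, a log2 difference of 2.41 ± 0.0751 (limma, adjusted p = 5.08e-13). The others were introns of Gphn, Kpna1, Il31ra and Atf2, an intron of Jarid2 whose nearest start site is that of Dtnbp1, an exonic region of Lars2 nearest to Limd1 and intergenic regions nearest to Igf2bp3, Myl12b and Rnf219. Their log2 differences ran from 1.37 at Limd1 to 3.87 at Rnf219. The last went from 15.7 and 12.9 tags in Input to 217 and 200 in PCM1. Equal heights at the top of the scale come from quantile normalization, which gives the same value to the same rank. The p-values of such regions therefore do not measure a spread between replicates.

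In Input the smallest p belonged to the promoter of Dnpep, the aspartyl aminopeptidase gene (chr1:75316959-75318121). With normalised heights of 1960 and 1960 it stood at the top of the Input scale, and had 734 and 678 in PCM1 (-1.47 ± 0.0534, limma, adjusted p = 2.62e-12). Before normalization the Dnpep summit held 2304 and 631 tags in Input and 517 and 461 in PCM1. The genome-wide backgrounds were 3.96 and 1.02 in Input and 0.977 and 0.903 in PCM1. At the top of the scale quantile normalization sets the height by rank, so the size of -1.47 depends on that step. The fold enrichment of Dnpep was 17.3 and 17.7 in Input and 17.3 and 16.5 in PCM1, and with log2 fold enrichment as the measure the difference turned to 0.17. Of the 10, 9 were promoters, those of Dnpep, Add3, Tle1, Vps26a, Dazap2, 2410002F23Rik, Radil, Usp3 and Gm10718. The last is 97.3% repeat-masked in the reference. The remaining region lay 22915 bases upstream of Tead1 (chr7:112656061-112656800), at normalised heights of 1060 and 1240 in Input and 491 and 562 in PCM1 (-1.13 ± 0.0785, limma, adjusted p = 6.88e-08). Before normalization it held 1951 and 591 tags in Input and 335 and 381 in PCM1. A further run of Input-higher regions lay in introns of Zbtb16, a zinc finger gene, with 4 of 10 tested regions between -0.56 and -1.22.

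Among regions found in both PCM1 libraries and neither Input library, the strongest was an intergenic interval 25631 bases upstream of Col19a1 (chr1:24612954-24613287), at rank 100 in both. It is similar to the mitochondrial genome over 334 bases at 99.7% identity, and no other PCM1-only region had such a match of at least 100 bases. The following regions included an intron of Arhgap21, coding exons of Sun1 (chr5:139225225-139225543 and chr5:139223542-139223818), an intron of Pdk1, an intergenic region nearest to Ddx18, introns of Samd4b and Lbh, and the promoter of Ccdc194. The Sun1 exons ranked at 92.5 and 88.6 and at 90.6 and 87 in the PCM1 libraries. Pitpnc1 and Ryr2 had the most PCM1-only regions nearest to a start site within 100 kb, 3 of 42 each, beside 0.571% of all merged regions.

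In the other direction, the strongest Input-only regions included those 30018 bases upstream of Tecrl (chr5:83384965-83385407), at ranks 88.7 and 89.3, in an intron of Rin3 nearest to Lgmn, in introns of Rnf144b, Sept11, Frmd4b and Ttc28, at the promoters of Maml3 and 4930550C14Rik, and in an intergenic region nearest to Stk35. Tecrl is a gene of the endoplasmic reticulum known from an inherited arrhythmia of the heart. Slc8a1 had the most Input-only regions, 8 of the 44 nearest to it. It was followed by Fam49b (7 of 38), Trio (7 of 48), Foxp1 (6 of 92), Mbnl2 (6 of 35) and Pkp4 (6 of 32). The share over all merged regions was 5.17%, and genes with more regions can hold more by number alone.

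Motif content differed between the sets. Away from promoters, the CTCF motif, the binding sequence of the insulator protein, was found within 300 bases of the summit in 5.5% of the 38489 tested regions, in 1.79% of the 1120 PCM1-higher regions and in 10.2% of the 578 Input-higher regions. The NKX2-5 motif (TNAAGTG) followed in the same direction, with 16.3%, 11.9% and 21.6%. The CArG box of SRF, a regulator of muscle actin genes, was found in 1.84%, 3.75% and 1.38%, MEF2 in 3.72%, 4.46% and 2.77%, and TEAD (GGAATG) in 22.3%, 25.1% and 18.3%. At promoters the SP/KLF motif, a run of G and C, was found in 23.2% of those tested, 10.7% of the PCM1-higher and 41.4% of the Input-higher. Away from promoters, the E-box (CAGCTG) was found in 29.7%, 32.2% and 25.8%, and the GATA motif (AGATAA) in 17.6%, 15.4% and 18%. These shares are descriptions, since the regions differ also in GC content and position.

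Summit height and fold enrichment differed at cardiomyocyte genes. The fold of a peak is its summit over the local background, a tag density that MACS2 estimates around the summit. That background, relative to each library's genome-wide level, had a median over the 43 regions of Cacna1c of 3.34 and 3.2 in Input and 8.88 and 9.32 in PCM1. At Myh6 it was 23.1 and 20.4 in Input and 49.3 and 52.3 in PCM1. The groups did not overlap at either gene.

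The fold was no higher in PCM1 at most of these regions. Over the sarcomere list, the median log2 difference was 0.37 for the summit, 0.51 for the local background and -0.06 for the fold, both of the latter centred on all tested regions. Over the calcium handling list these values were 0.45, 0.59 and -0.03. The local background was higher in PCM1 at 87 of 88 sarcomere regions and at 110 of 123 calcium handling regions, while the fold was higher at 37 and 53. The cardiac transcription factor list had a median local background difference of 0.36, above 0 at 76 of 89 regions, and a median fold difference of -0.07. With log2 fold enrichment as the measure, limma called 0 regions of either list. Over all 51162 tested regions it called 19 higher in PCM1 (0.0371%) and 36 higher in Input (0.0704%). At such shares a count of 0 in lists of this length does not set them apart from other regions.

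**Figure D5:**
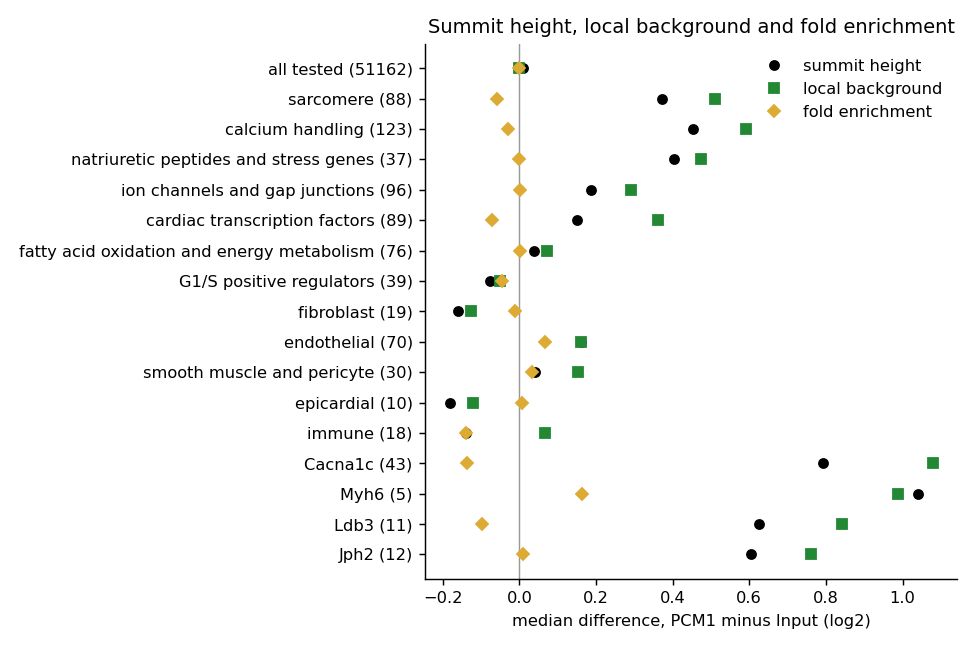
Median log2 difference, PCM1 minus Input, of normalised summit height (circles), local background (squares) and fold enrichment (diamonds) over the tested regions of each list or gene, with their number in brackets. In the sarcomere list the summit (0.37) and the background (0.51) are above 0 and the fold (-0.06) is not.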

How the data were processed

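Omni-ATAC-Seq peak lists of 2 Input and 2 PCM1 libraries were used, and the 2 Myc libraries served only for the Sun1 count. The authors trimmed reads, aligned them to mm10 with Bowtie2 2.3.3.1, marked duplicates with Picard 2.2.1, removed blacklisted regions, shifted reads for Tn5 and called peaks per library with MACS2 2.1.0.20160309 at a q-value of 0.05, without pooling replicates. The deposited values of each peak are a score, a fold enrichment over local background, a -log10 p-value, a -log10 q-value and a summit position. The read totals of the study were not used here, and relative depth was taken from the recovered genome-wide background.

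Peaks of the 4 lists were merged with bedtools 2.31.1. Summit pileup, the tags at a summit, and the local background were recovered from the deposited fold and -log10 p-value, and pileups came out whole within 0.02 of the -log10 p-value. Ranks used the -log10 q-value. Log2 pileups of the 51162 regions called in all 4 libraries were quantile normalized and tested with limma 3.58.1 (variance trend, Benjamini-Hochberg adjustment over all regions); fitting was tested on simulated data. Regions were annotated with GENCODE M21, with promoters within 1 kb of a protein-coding start site and gene windows of the body and 2 kb to either side.

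Named regions were, per direction, the 10 group-only regions highest in rank and the 10 with the smallest p, the 5 genes with the most group-only regions, marker genes and up to 4 members of each list by rank difference. Some of these items are not reported here. Other genes were named after their values were seen. The members and the 18 lists were chosen with earlier results of these data known. Of 238 list genes, 237 were found in the annotation. The alternatives were other q-value, overlap, peak number, rank, normalization, filter, promoter and GC settings, a replicate block, and leaving out each library, and the GC correction was chosen after seeing the data.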

Additional observations from a re-analysis of the deposited data

How the results depend on the processing

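Counts of regions found in 1 group only, and of regions ranked apart, followed list length and library number. PCM1-only regions numbered 2925 and Input-only regions 4259 with equal numbers of peaks, and leaving out 1 library gave 973 to 8814 and 11176 to 45783. Ranks gave 4356 PCM1-higher regions as percentiles within each list, and 25154 to 43596 PCM1-higher and 34067 to 70233 Input-higher regions without 1 library. For summit height, limma called 19 and 36 regions (PCM1-higher and Input-higher) on log2 fold enrichment and 0 and 0 without a variance trend, 3790 Input-higher regions with median centring, and 0 to 10 and 0 to 4 without 1 library, where the lone sample of a group is assumed to vary like the other group. With promoters of 3 kb, 10.8% of PCM1-only and 8.93% of Input-only regions were promoters, and with equal numbers of peaks 6.72% of Input-only regions were. The cause of these shifts was not tested.

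With the replicate number as a block, 2202 regions were higher in PCM1 and 2604 higher in Input. Deviations of same-numbered libraries correlated at -0.00448 over 51162 regions, so the numbers are not known to pair the libraries.

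On log2 fold enrichment, 26 of 89 named regions changed sign. Gphn had -0.08, Dnpep 0.17, Myh6 -0.01, -0.07 and -0.09, Tnnt2 -0.12, Cacna1c -0.08, -0.29, -0.07, -0.01, -0.17, -0.23, -0.25, -0.06, -0.02 and -0.05, Ldb3 -0.01, -0.74, -0.22, -0.25, -0.13 and -0.05, Jph2 -0.08 and -0.04, and Myl2 -0.25 and -0.12. Of the 89, 82 kept direction and call after the GC correction and 76 with median centring. Input replicate 1 is deepest, and a weak region may lie below what the other libraries could show.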

Other observations

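The local background also set other genes apart. Among 1979 genes with at least 5 tested regions, genes with a high median log2 difference of local background, PCM1 minus Input, included Cacna1c (1.08), Myh6 (0.99), Kcng2 (0.9), Ldb3 (0.84), Prdm16 (0.84) and Rbm20 (0.82). Ppargc1b, a coactivator of mitochondrial gene expression, had 0.81 and Casz1 0.8. On the Input side the lowest were Tle1 (-0.56), Osbpl8 (-0.49), Wdfy1 (-0.49) and Slc16a7 (-0.44). These genes were chosen after their values were seen, and no test was made.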
